A study of Solanum tuberosum with 8 samples.

Results

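The subject of this section is a group of 210 probes for transcripts of biotic stress and pathogenesis-related proteins, among the 42034 potato probes of the array. They are the probes that the study's list of drought-responsive transcripts, of which a part was read here, places in the biotic stress category of MapMan, a catalogue of plant gene functions, with all its subdivisions. A transcript entered that list when its level differed between drought and control in WT, in the transgenic line or in both, so the changes under drought chose the members. In what follows, drought changes and the difference of the drought changes between the lines are therefore given as a description without a test, and only the comparisons of the 2 lines within a treatment carry adjusted p-values. Those comparisons were not the rule, but they use the same 8 arrays as the drought changes, so the counts of members called in them, set beside the shares of all probes, are not independent of the choice.

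The plants were potato (Solanum tuberosum cv Solara), either WT siblings or the line Stpfld252. This single transgenic line expresses flavodoxin (Fld), an electron carrier of the cyanobacterium Anabaena that carries the transit peptide of a pea chloroplast protein, from the constitutive CaMV 35S promoter. Plants grown for 4 weeks were either kept watered (control) or left without water for 3 days (drought), which gave 4 groups, WT control, WT drought, Stpfld252 control and Stpfld252 drought. RNA came from young, fully expanded leaves, and each group holds 2 one-colour arrays, each of a pool of plants from an independent experiment, out of 10 plants per group.

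Pathogenesis-related (PR) proteins are small, mostly secreted or vacuolar proteins that accumulate in infected, wounded or stressed leaves. Chitinases degrade fungal cell walls, osmotins and other thaumatin-like proteins permeabilise fungal membranes, proteinase inhibitors block the digestive enzymes of insects and microbes, and thionins are cysteine-rich antimicrobial peptides. Upstream of them, receptors with leucine-rich repeats (LRR) at the cell surface and proteins with a nucleotide-binding site and LRRs (NBS-LRR, with a CC or a TIR domain at one end) inside the cell recognise pathogens. Osmotin was first found in salt-adapted tobacco cells, and proteinase inhibitors I and II of potato and tomato leaves are known for their induction by wounding through jasmonate.

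By MapMan category the 210 probes comprise 9 for PR-1, 20 for chitinase, 21 for osmotin and thaumatin, 21 for proteinase inhibitors, 3 for thionin, 4 for other PR proteins, 39 for LRR receptors, 40 for CC-NBS-LRR and 18 for TIR-NBS-LRR proteins, 3 for the respiratory burst, 7 for signalling and 25 without a narrower category. The category and the sequence description of a probe did not always match. The chitinase category holds 14 probes described as chitinase, 3 receptor kinases and 3 probes with no match, and the proteinase inhibitor category holds 11 probes described as inhibitors and 2 serpins beside probes described as a microtubule-binding protein, a protein of unknown function (clone TPP11) and a von Willebrand domain protein. Among the CC-NBS-LRR probes are 1 described as actin and 1 as a plastidic aldolase, and 33 of the 210 members had no match at all. The members come from 185 contigs or single sequences, where contig here means only the number after MICRO. in the probe name. Probes of one contig are not counted as independent, since they may bind RNA of the same gene. A shared number does not show that they do. The probes of MICRO.839, for example, are described as an oxidase, as inhibitors and as a microtubule-binding protein. No sequences were compared.

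All 210 members passed the filter on dim probes, which 36435 of the 42034 probes passed, and 190 were well above background on all 8 arrays, while 16 were not on both arrays of some group. The SD between the 2 arrays of a group, over all probes, was 0.136 to 0.174 on the log2 scale, and 0 spots were saturated. The drought arrays shared a slide and the control arrays another one. An effect of drought and of its slide cannot be told apart, while the lines were compared within a slide. The array reads whole leaves, in which fewer cells of a type and less RNA per cell cannot be told apart. As leaf markers, 45 probes were taken that MapMan places under light-harvesting complex II or the Rubisco small subunit, some of them with no match or another description, and 41 were well above background on all arrays. Their summed level, as log2, was 20.32 to 20.37 in WT control, 18.66 to 18.73 in WT drought, 20.52 to 20.54 in Stpfld252 control and 19.89 to 19.93 in Stpfld252 drought. These 45 probes came from the same list of drought-responsive transcripts. Of them 41 were called lower under drought in WT and 20 in Stpfld252, beside 10.3% and 8.14% of all probes. Against WT, 31 were called higher and 0 lower in droughted Stpfld252, beside 6.15% and 5.15% of all probes. In watered Stpfld252 8 were higher and 0 lower, beside 3.99% and 2.09%. The part of these leaf markers in the results below was not tested. All values are normalised log2 intensities, and a change is called when it exceeds 2-fold with a limma adjusted p below 0.05 over all 36435 probes.

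**Figure D1:**
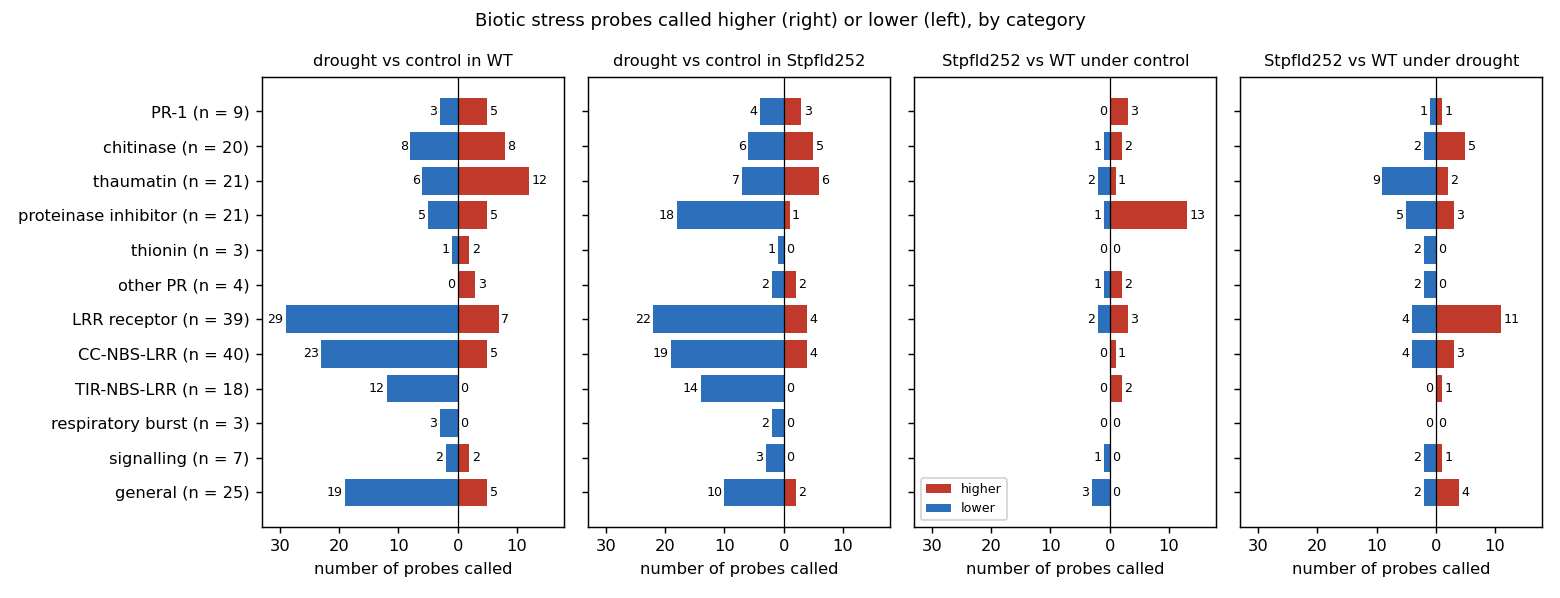
Number of biotic stress probes called higher (bars to the right) or lower (bars to the left) in each MapMan category, for drought against control in WT and in Stpfld252 and for Stpfld252 against WT under control and under drought. In watered plants 13 of the 21 proteinase inhibitor probes were higher in Stpfld252, and under drought 9 of the 21 osmotin and thaumatin probes were lower.

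Most members were lower under drought in both lines. In WT, 54 of the 210 were called higher under drought and 111 lower, where 8.48% and 10.3% of all probes tested were, and in Stpfld252 27 were called higher and 108 lower, against 5.88% and 8.14% of all probes. The counts of members follow from their choice, and so do all drought counts by category below, which stand beside the same shares of all probes. Of the 78 probes in the PR protein categories (PR-1 to other PR), 35 were higher and 23 lower in WT and 17 higher and 38 lower in Stpfld252, whereas of the 97 probes for receptors and NBS-LRR proteins 12 were higher and 64 lower in WT and 8 and 55 in Stpfld252. The median change over all members was -1.12 in WT and -1.04 in Stpfld252, beside 0.04 and 0.05 over all probes.

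Of the 210 members, 83 were called in the same direction in both lines, 75 in WT only, 45 in Stpfld252 only, and 7 in opposite directions. Differences between the lines are given below for each of the 7, and array values for all but MICRO.9973.C1 and MICRO.6076.C2. The 7 were both serpin probes, 2 further probes of the proteinase inhibitor category (MICRO.839.C8 and MICRO.12677.C2) and an unmatched PR probe (MICRO.8856.C2). The rest were an LRR protein (MICRO.10912.C1) and a CC-NBS-LRR member described as an expressed protein (MICRO.6076.C2). Of these calls, that of MICRO.12677.C2 in Stpfld252 was lost without Stpfld252 drought replicate 2 (a change of -0.58) or without Stpfld252 control replicate 1 (-0.92), and with median scaling of the arrays that change was 0.30, of the same sign as in WT. The call of MICRO.10912.C1 in WT was lost without WT drought replicate 1 (-0.86).

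**Figure D2:**
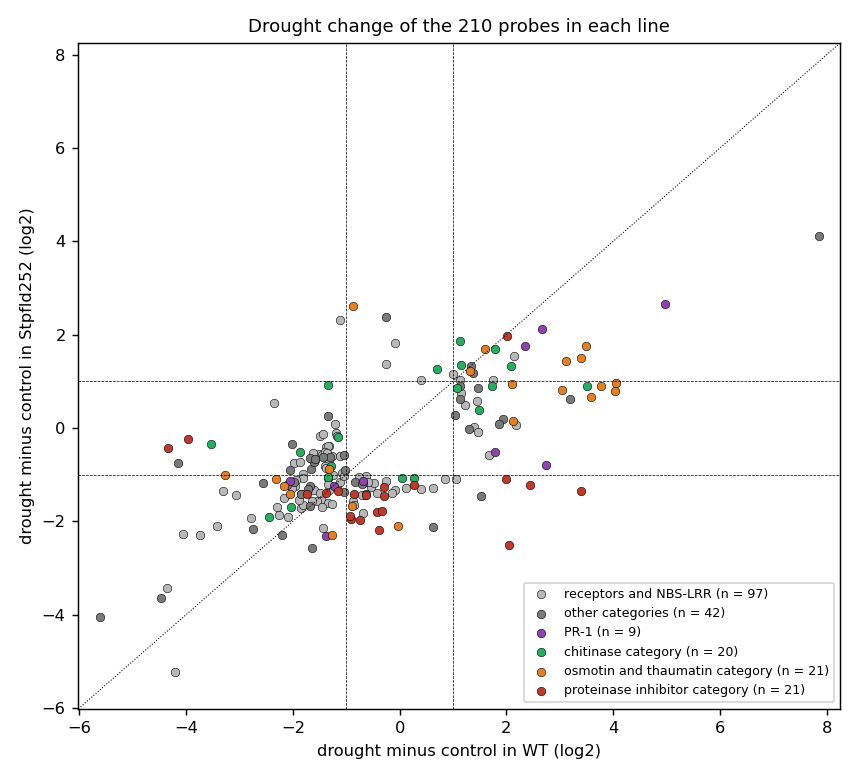
Change under drought (log2, mean of 2 drought arrays minus mean of 2 control arrays) of each of the 210 probes in WT (horizontal axis) and Stpfld252 (vertical axis), coloured by category. Dashed lines mark a 2-fold change and the dotted line equal change in both lines. Many osmotin and thaumatin probes lie to the right with smaller values in Stpfld252, and most proteinase inhibitor probes lie below the lower dashed line.

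Between the lines, fewer members differed. In watered plants 27 of the 210 were higher in Stpfld252 and 11 lower, beside 3.99% and 2.09% of all probes, and 21 of the 27 belonged to the PR protein categories. Under drought 31 were higher and 33 lower, beside 6.15% and 5.15% of all probes, with 11 higher and 21 lower among the PR protein categories and 15 higher and 8 lower among receptors and NBS-LRR proteins. Few members were called in both treatments. The 3 that were higher in Stpfld252 in both were an acidic class III chitinase (MICRO.11070.C2), a proteinase inhibitor I (MICRO.3368.C12) and a disease resistance protein-like LRR probe (MICRO.2519.C1), and the 3 that were lower in both were a trypsin inhibitor-like protein (MICRO.17652.C2), WIN2 (MICRO.11296.C2) and a thaumatin-like protein (MICRO.12664.C1). Without WT drought replicate 1 the drought difference of MICRO.2519.C1 was 0.90 on the log2 scale and not called. Another 4 were higher in control and lower under drought, and 2 were the reverse. The difference of the drought changes, Stpfld252 minus WT, was called higher for 33 members and lower for 50, where 6.14% and 6.26% of all probes were, and the choice of the members bears on it.

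**Figure D3:**
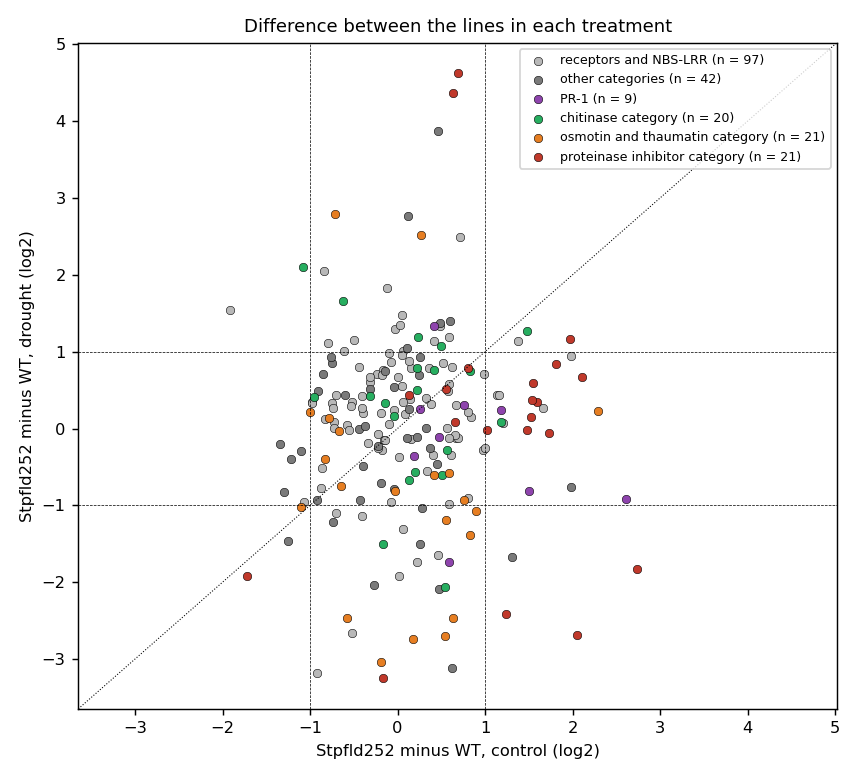
Difference between the lines (log2, Stpfld252 minus WT) of each of the 210 probes under control (horizontal axis) and under drought (vertical axis), coloured by category. Dashed lines mark a 2-fold difference and the dotted line equal differences. Proteinase inhibitor probes lie to the right near 0 on the vertical axis, osmotin and thaumatin probes extend downward, and the 2 TPP11 probes lie at the top.

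PR-1 is a secreted protein long used as a marker of the salicylic acid response. In its category 5 of 9 probes were called higher under drought in WT and 3 lower, beside 8.48% and 10.3% of all probes. In Stpfld252 3 were higher and 4 lower, beside 5.88% and 8.14%. A putative PR protein (MICRO.15316.C1) read 7.21 and 7.07 on the WT control arrays, 12.04 and 12.19 on the WT drought arrays, 8.62 and 8.67 on the Stpfld252 control arrays and 11.11 and 11.49 on the Stpfld252 drought arrays. Drought levels lay above all control levels in both lines, 31.4-fold in WT (a log2 change of 4.97 ± 0.13, SE) and 6.29-fold in Stpfld252, and the watered Stpfld252 plants were 2.84-fold above watered WT (adjusted p = 0.0002). A tumor-related protein (MICRO.16957.C1), named after its tobacco counterpart in genetic tumors, read 4.52 and 4.61 in WT control, 7.43 and 7.18 in WT drought, 7.22 and 7.13 in Stpfld252 control and 6.31 and 6.46 in Stpfld252 drought. Watered Stpfld252 plants thus stood near the level of droughted WT plants, 6.1-fold above watered WT (adjusted p = 9e-06), and their drought change was -0.79 ± 0.11 against 2.74 ± 0.11 in WT. A probe outside the members that is also described as a tumor-related protein, MICRO.17652.C1, went the other way. Its differences between the lines were -1.65 ± 0.08 under control and -1.88 ± 0.08 under drought. It came from the study's list of differences between the lines in watered plants.

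A basic PR-1 precursor (MICRO.8918.C2) read 8.50 on both WT drought arrays, above the other 6 arrays, which ranged from 6.58 to 7.53. Under drought it was 3.33-fold lower in Stpfld252 than in WT (adjusted p = 0.00023). The probe BPLI14P23TH, whose tobacco match is a PR-1 protein, went the other way and read 8.66 and 8.56 in WT control, 6.57 and 6.54 in WT drought, 8.87 and 9.17 in Stpfld252 control and 7.87 and 7.91 in Stpfld252 drought. Its drought level was 2.52-fold higher in Stpfld252 (adjusted p = 6.8e-05). STS14 (MICRO.5318.C1), a PR-1 relative first described in potato pistils, was lower under drought in both lines, by 1.37 ± 0.08 in WT and 2.32 ± 0.08 in Stpfld252 on the log2 scale, and 2.27-fold higher in Stpfld252 under control (adjusted p = 5.2e-05). The category also holds 2 probes for EDS1, a lipase-like regulator of TIR-NBS-LRR signalling. MICRO.1389.C1 changed by -0.68 ± 0.07 in WT and -1.14 ± 0.07 in Stpfld252 and MICRO.1389.C3 by -1.23 ± 0.09 and -1.24 ± 0.09. Neither differed by 2-fold between the lines in either treatment. Of 3 probes of this contig outside the members, MICRO.1389.C2 changed by -1.01 ± 0.10 in WT and -0.11 ± 0.10 in Stpfld252. MICRO.1389.C4 and MICRO.1389.C5 changed by 0.003 ± 0.10 and 0.12 ± 0.09 in WT and -0.05 ± 0.10 and -0.04 ± 0.09 in Stpfld252. An unmatched probe (bf_mxlfxxxx_0043c03) and MICRO.13818.C2, with a rice match, were higher under drought in both lines, by 2.67 ± 0.09 and 2.35 ± 0.07 in WT and 2.12 ± 0.09 and 1.76 ± 0.07 in Stpfld252. Over the 9 probes, 3 were higher in Stpfld252 than in WT under control, with 0 lower, beside 3.99% and 2.09% of all probes. Under drought 1 was higher and 1 lower, beside 6.15% and 5.15%.

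Chitinases moved in both directions, also within one contig. Of the 14 probes described as chitinase, 6 were called higher and 6 lower under drought in WT, beside 8.48% and 10.3% of all probes. In Stpfld252 5 were higher and 2 lower, beside 5.88% and 8.14%. Under drought 5 of the 14 were higher in Stpfld252 than in WT and 2 lower, beside 6.15% and 5.15% of all probes, and in watered plants 1 was higher and 1 lower, beside 3.99% and 2.09%. The difference of these counts between the treatments was not tested.

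The class I chitinases of contig MICRO.556 show the split. MICRO.556.C1 read 11.98 and 11.84 in WT control, 8.34 and 8.42 in WT drought, 10.83 and 10.82 in Stpfld252 control and 10.57 and 10.40 in Stpfld252 drought. Only the WT drought arrays were far below the rest, with a drought change of -3.53 ± 0.09 in WT and -0.35 ± 0.09 in Stpfld252, so that under drought Stpfld252 was 4.29-fold above WT (adjusted p = 3.5e-06) and under control 2.11-fold below it (adjusted p = 0.00016). MICRO.556.C3 read 5.03 and 5.06 in WT control, 8.51 and 8.58 in WT drought, 5.66 and 5.51 in Stpfld252 control and 6.40 and 6.57 in Stpfld252 drought. Here the WT drought arrays were far above the rest, and Stpfld252 was 4.18-fold lower than WT under drought (adjusted p = 3.8e-06). MICRO.556.C7 (clone ChtB1) was level between the treatments in WT (0.27 ± 0.09) and lower under drought in Stpfld252 (-1.07 ± 0.09), 2.84-fold below WT in drought (adjusted p = 1.5e-05). MICRO.556.C10 (clone ChtB3) changed by -1.88 ± 0.08 in WT and -0.51 ± 0.08 in Stpfld252, with no 2-fold difference between the lines. A further probe of the contig that is not a member, MICRO.556.C2, was lower by 1.36 ± 0.07 (log2) in Stpfld252 under drought. The probes may share targets, and each of these values could hold signal from a close relative.

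An unclassified chitinase pair of contig MICRO.11279 behaved differently again. MICRO.11279.C1 read 6.98 and 6.77 in WT control, 5.42 and 5.63 in WT drought, 6.21 and 6.30 in Stpfld252 control and 7.33 and 7.04 in Stpfld252 drought, and under drought it was 3.15-fold higher in Stpfld252 (adjusted p = 5.7e-05). MICRO.11279.C2 was higher under drought by a similar amount in both lines, 1.79 ± 0.13 in WT and 1.70 ± 0.13 in Stpfld252. The acidic class III chitinase (MICRO.11070.C2), a secreted form, read 8.66 and 8.40 in WT control, 9.48 and 9.73 in WT drought, 9.92 and 10.10 in Stpfld252 control and 10.77 and 10.97 in Stpfld252 drought. Every Stpfld252 array lay above both WT arrays of the same treatment, 2.79-fold under control (adjusted p = 0.00024) and 2.41-fold under drought (adjusted p = 0.00025). Class II chitinases (MICRO.10439.C1 and MICRO.10439.C4) were higher under drought in both lines, by 1.13 to 1.86, and the class I chitinase-like MICRO.1082.C4 was lower in both, by 2.45 ± 0.11 in WT and 1.90 ± 0.11 in Stpfld252. Those 3 probes differed by less than 2-fold between the lines in both treatments, as did the chitinase-like MICRO.1082.C3 (drought changes of -1.29 ± 0.08 in WT and -0.81 ± 0.08 in Stpfld252) and a class V chitinase (MICRO.7973.C2, 2.09 ± 0.15 and 1.32 ± 0.15). Of the last pair of chitinases, bf_stolxxxx_0054c06 read 8.11 and 8.16 in WT control, 6.94 and 7.04 in WT drought, 8.44 and 8.30 in Stpfld252 control and 8.28 and 8.08 in Stpfld252 drought, and was 2.29-fold higher in droughted Stpfld252 (adjusted p = 6.5e-05). A tobacco-matched chitinase (bf_ivrootxx_0028f03) was 2.1-fold higher there (adjusted p = 0.0015), or 0.96 on the log2 scale and not called without Stpfld252 drought replicate 1.

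**Figure D4:**
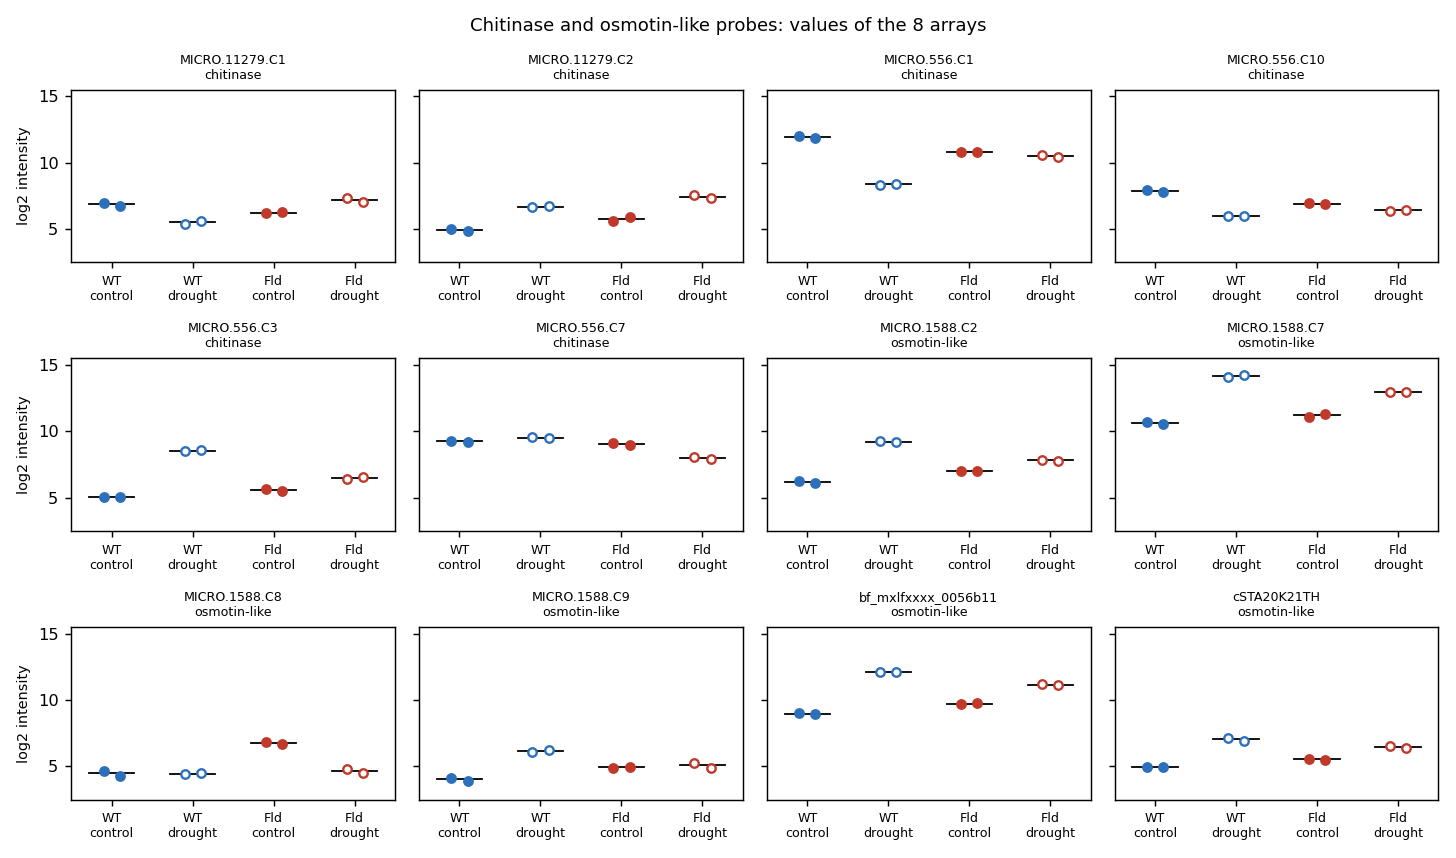
Normalised log2 intensity of 6 chitinase and 6 osmotin-like probes on each of the 8 arrays, in WT (blue) and Stpfld252 (red, Fld on the axis), control (filled) and drought (open), with the mean of 2 arrays as a bar. MICRO.556.C1 and MICRO.556.C3 of one contig changed in opposite directions in WT under drought, and 5 of the 6 osmotin-like probes were highest in WT drought.

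Of the 6 osmotin-like members 5 had a positive drought change in each line, and 5 were called higher in WT and 2 in Stpfld252. In the osmotin and thaumatin category 12 of 21 probes were called higher under drought in WT and 6 lower, beside 8.48% and 10.3% of all probes. In Stpfld252 6 were higher and 7 lower, beside 5.88% and 8.14%. Under drought 9 of the 21 were lower in Stpfld252 than in WT and 2 higher, beside 5.15% and 6.15% of all probes. In watered plants 1 was higher and 2 lower, beside 3.99% and 2.09%.

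The 6 probes described as osmotin or osmotin-like include 4 of contig MICRO.1588. MICRO.1588.C7 read 10.74 and 10.55 in WT control, 14.06 and 14.21 in WT drought, 11.08 and 11.31 in Stpfld252 control and 12.93 and 12.97 in Stpfld252 drought, and MICRO.1588.C2 read 6.26 and 6.09, 9.24 and 9.17, 6.99 and 7.01, and 7.87 and 7.77 in the same order. In both probes the 4 groups did not overlap and stood in 1 order, with WT control lowest, then Stpfld252 control, Stpfld252 drought and WT drought. MICRO.1588.C7 changed by 3.49 ± 0.11 under drought in WT and by 1.75 ± 0.11 in Stpfld252, and MICRO.1588.C2 by 3.03 ± 0.09 and 0.82 ± 0.09. Under drought Stpfld252 was 2.27-fold below WT for MICRO.1588.C7 (adjusted p = 0.00014) and 2.62-fold below it for MICRO.1588.C2 (adjusted p = 1.9e-05). The probes bf_mxlfxxxx_0056b11 and cSTA20K21TH had the same order of groups, with drought changes of 3.11 ± 0.07 and 2.10 ± 0.09 in WT and 1.43 ± 0.07 and 0.94 ± 0.09 in Stpfld252, and differed by less than 2-fold between the lines in drought (1.9-fold and 1.49-fold). MICRO.1588.C9, not well above background in WT control, was at least 4.36-fold higher in WT under drought and 2.1-fold lower in Stpfld252 than in WT under drought (adjusted p = 0.00046). That difference was -0.90 and not called without Stpfld252 drought replicate 2, and -0.49 with median scaling of the arrays.

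MICRO.1588.C8 had another pattern. It read 4.66 and 4.32 in WT control, 4.42 and 4.48 in WT drought, 6.87 and 6.70 in Stpfld252 control and 4.84 and 4.53 in Stpfld252 drought, and was not well above background on the 4 WT arrays. In watered plants it was therefore at least 4.89-fold higher in Stpfld252 (adjusted p = 5.2e-05). MICRO.1588.C1, a probe of this contig outside the members, changed by less than 2-fold in every comparison. Another osmotin-like probe outside the members, MICRO.13949.C1, changed under drought by 0.95 ± 0.13 in WT and 1.24 ± 0.13 in Stpfld252. Its differences between the lines were -1.65 ± 0.13 under control and -1.37 ± 0.13 under drought. It came from the study's list of differences between the lines in watered plants.

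Further probes of the category differed more between the lines than the osmotin-like ones did under drought. Those of bf_arrayxxx_0105a09 and STMGW86TV, which share a description (hypothetical protein of Arabidopsis), read 9.49 and 9.48, and 8.98 and 9.17, in WT control, 13.53 and 13.57, and 13.16 and 13.07, in WT drought, and 11.15 and 11.02, and 10.41 and 10.41, in Stpfld252 drought. Stpfld252 was 5.53-fold (adjusted p = 1.1e-06) and 6.5-fold (adjusted p = 1.3e-06) below WT in drought, and in watered plants both were above WT by less than 2-fold. A potato thaumatin-like protein (bf_suspxxxx_0014c04) read 8.97 and 9.06 in WT control, 12.43 and 12.39 in WT drought, 8.43 and 8.45 in Stpfld252 control and 9.95 and 9.93 in Stpfld252 drought, and was 5.54-fold lower in Stpfld252 under drought (adjusted p = 7.6e-07). MICRO.13533.C1 and MICRO.17218.C1, matched to rice and Arabidopsis proteins, were also lower in drought in Stpfld252, by 6.69-fold (adjusted p = 2.3e-05) and 8.24-fold (adjusted p = 6.5e-06). The latter was well above background on both WT drought arrays and on 1 Stpfld252 drought array.

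The reverse was seen for 2 probes. MICRO.11744.C1, a thaumatin-like protein, read 9.35 and 9.21 in WT control, 5.99 and 6.03 in WT drought, 9.54 and 9.54 in Stpfld252 control and 8.63 and 8.42 in Stpfld252 drought. MICRO.18132.C1, matched to the grapevine thaumatin-like protein SCUTL2, read 6.02 and 5.87, 5.11 and 5.02, 5.21 and 5.26, and 7.80 and 7.92 in that order. Both were above WT in droughted Stpfld252, the former 5.71-fold (adjusted p = 2.1e-06) after a fall of 9.6-fold in WT, and the latter 6.93-fold (adjusted p = 1e-06) with a drought change of 2.62 ± 0.09 in Stpfld252 and -0.88 ± 0.09 in WT. MICRO.12664.C1, a potato thaumatin-like protein, was higher under drought to the same extent in both lines (1.61 ± 0.07 and 1.69 ± 0.07) from a level 2.15-fold lower in watered Stpfld252 (adjusted p = 5.2e-05). MICRO.12664.C2 of the same contig changed by 1.31 ± 0.08 and 1.21 ± 0.08. Lower under drought in both lines were MICRO.14064.C1, MICRO.14652.C1 and MICRO.1528.C2, thaumatin-like proteins with Arabidopsis matches, with changes of -1.27 to -2.16 in WT and -1.25 to -2.30 in Stpfld252, and these 4 probes differed by less than 2-fold between the lines in each treatment.

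Most proteinase inhibitor probes differed between the watered plants of the 2 lines. In watered plants 13 of the 21 probes of the category were higher in Stpfld252 and 1 lower, beside 3.99% and 2.09% of all probes tested, and the median difference was 1.48 against -0.04 over all probes. Of the 11 probes described as inhibitors 8 were higher and 1 lower. Under drought 3 of the 21 were higher and 5 lower, beside 6.15% and 5.15% of all probes, with a median difference of 0.35. The drought changes, which chose the members, carry no test. In them 18 of 21 probes were called lower in Stpfld252 and 1 higher, beside 8.14% and 5.88% of all probes. In WT 5 were lower and 5 higher, beside 10.3% and 8.48%. The choice of these 21 thus rested on 19 calls in Stpfld252 and 10 in WT. High levels on the watered Stpfld252 arrays raise both the fall under drought there and the difference from watered WT. The counts in watered plants are therefore not independent of the choice and are a description.

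Proteinase inhibitor I blocks chymotrypsin-like enzymes and is found in wounded leaves and in tubers. Of its 7 probes 6 were higher in watered Stpfld252. MICRO.3368.C12 read 10.66 and 10.88 in WT control, 10.22 and 10.08 in WT drought, 12.69 and 12.79 in Stpfld252 control and 11.12 and 11.50 in Stpfld252 drought. Its levels in Stpfld252 exceeded those in WT in both treatments, 3.92-fold under control (adjusted p = 8.1e-05) and 2.24-fold under drought (adjusted p = 0.00046), the latter 0.97 on the log2 scale and not called without Stpfld252 drought replicate 2. TBSK02677FH01 read 5.48 and 5.15 in WT control, 4.98 on both WT drought arrays, 7.43 and 7.41 in Stpfld252 control and 5.52 and 5.78 in Stpfld252 drought, 4.31-fold higher in Stpfld252 under control (adjusted p = 4.5e-05). The other 4 (MICRO.3368.C16, TBSK02083FF07, bf_cswbxxxx_0019g08 and bf_cswcxxxx_0007b05) were 2.03-fold to 2.93-fold higher under control, with adjusted p from 7.3e-05 to 0.0017, and within 2-fold under drought. In all 6 the 2 watered Stpfld252 arrays lay above the 6 other arrays. They changed by -1.43 to -1.94 under drought in Stpfld252 and by -0.29 to -0.92 in WT. Of 3 further probes of contig MICRO.3368 outside the members, MICRO.3368.C14 was 1.25 ± 0.17 higher in watered Stpfld252 on the log2 scale, while MICRO.3368.C1 and MICRO.3368.C6 differed by 0.03 ± 0.08 and 0.17 ± 0.14.

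MICRO.12677.C2, described as the ethylene-responsive proteinase inhibitor I, was the exception. It read 4.84 and 4.68 in WT control, 6.73 and 6.75 in WT drought, 4.78 and 4.42 in Stpfld252 control and 4.02 and 2.97 in Stpfld252 drought, where it was not well above background. Levels were up under drought in WT alone, and droughted Stpfld252 was at least 6.68-fold below droughted WT (adjusted p = 0.00014).

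Inhibitors matched to Nicotiana glutinosa (MICRO.839.C6 and MICRO.839.C13) had the pattern of proteinase inhibitor I. MICRO.839.C6 read 10.78 and 10.64 in WT control, 10.32 and 10.33 in WT drought, 12.44 and 12.45 in Stpfld252 control and 10.27 and 10.26 in Stpfld252 drought, 3.33-fold above WT under control (adjusted p = 1.1e-05) and level with it under drought (-0.06 ± 0.07). MICRO.839.C13 was 2.79-fold higher under control (adjusted p = 9.5e-05). MICRO.839.C8, grouped with the inhibitors by MapMan but described as a microtubule-binding protein, read 5.23 and 4.82 in WT control, 7.09 and 7.06 in WT drought, 7.74 and 7.78 in Stpfld252 control and 5.53 and 4.95 in Stpfld252 drought. The lines changed in opposite directions, with Stpfld252 6.64-fold higher under control (adjusted p = 9.3e-05) and 3.57-fold lower under drought (adjusted p = 0.00028). Probes of this contig outside the members (MICRO.839.C1, MICRO.839.C5, MICRO.839.C7 and MICRO.839.C12) were not called in any comparison.

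Serpins inhibit serine proteinases by trapping them in a covalent complex. Both serpin probes repeated this mirrored pattern. MICRO.9973.C2 read 4.66 and 4.71 in WT control, 8.06 and 8.10 in WT drought, 6.74 on both Stpfld252 control arrays and 5.35 and 5.43 in Stpfld252 drought. It was up by 3.39 ± 0.07 under drought in WT and down by 1.35 ± 0.07 in Stpfld252, with the lines apart by 4.16-fold under control (adjusted p = 5.8e-06) and 6.44-fold the other way under drought (adjusted p = 5.8e-07). MICRO.9973.C1 was at least 2.36-fold higher in watered Stpfld252 (adjusted p = 0.0031), since it was not well above background in WT control. Under drought it was 5.35-fold lower (adjusted p = 7.7e-05), where 1 of the 2 Stpfld252 arrays was well above background. Its fitted drought changes were 2.43 ± 0.20 in WT and -1.22 ± 0.20 in Stpfld252.

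A trypsin inhibitor-like protein (MICRO.17652.C2), pathogen-inducible in Medicago, was the only inhibitor probe called lower in watered Stpfld252. It read 9.96 and 10.02 in WT control, 8.84 and 8.83 in WT drought, 8.26 and 8.27 in Stpfld252 control and 6.94 and 6.90 in Stpfld252 drought. The 2 differences between the lines, 3.3-fold under control (adjusted p = 8e-06) and 3.77-fold under drought (adjusted p = 1.7e-06), were of similar size, and so were the 2 drought changes (-1.15 ± 0.07 and -1.34 ± 0.07). MICRO.10677.C2, the other trypsin inhibitor-like probe, changed by -1.37 ± 0.14 and -1.39 ± 0.14 and stood 1.75-fold and 1.73-fold above WT in the 2 treatments, short of the 2-fold limit.

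Both probes for the TPP11-like protein, matched to a tomato clone, were close to background in droughted WT plants only. MICRO.4937.C1 read 7.55 and 7.57 in WT control, 3.62 and 3.57 in WT drought, 8.05 and 8.33 in Stpfld252 control and 8.03 and 7.89 in Stpfld252 drought. It was not well above background in WT drought, where Stpfld252 was at least 14.9-fold higher (adjusted p = 4.1e-07). The probe bf_mxflxxxx_0028e11 read 8.79 and 8.77, 4.23 and 4.63, 9.42 and 9.53, and 9.02 and 9.08 in the same order, and was 24.6-fold higher in droughted Stpfld252 (adjusted p = 6.9e-07), with 1 of the 2 WT drought arrays well above background. These were the widest differences between the lines among the 210 members. In Stpfld252 itself the drought changes were -0.23 ± 0.11 and -0.42 ± 0.13.

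**Figure D5:**
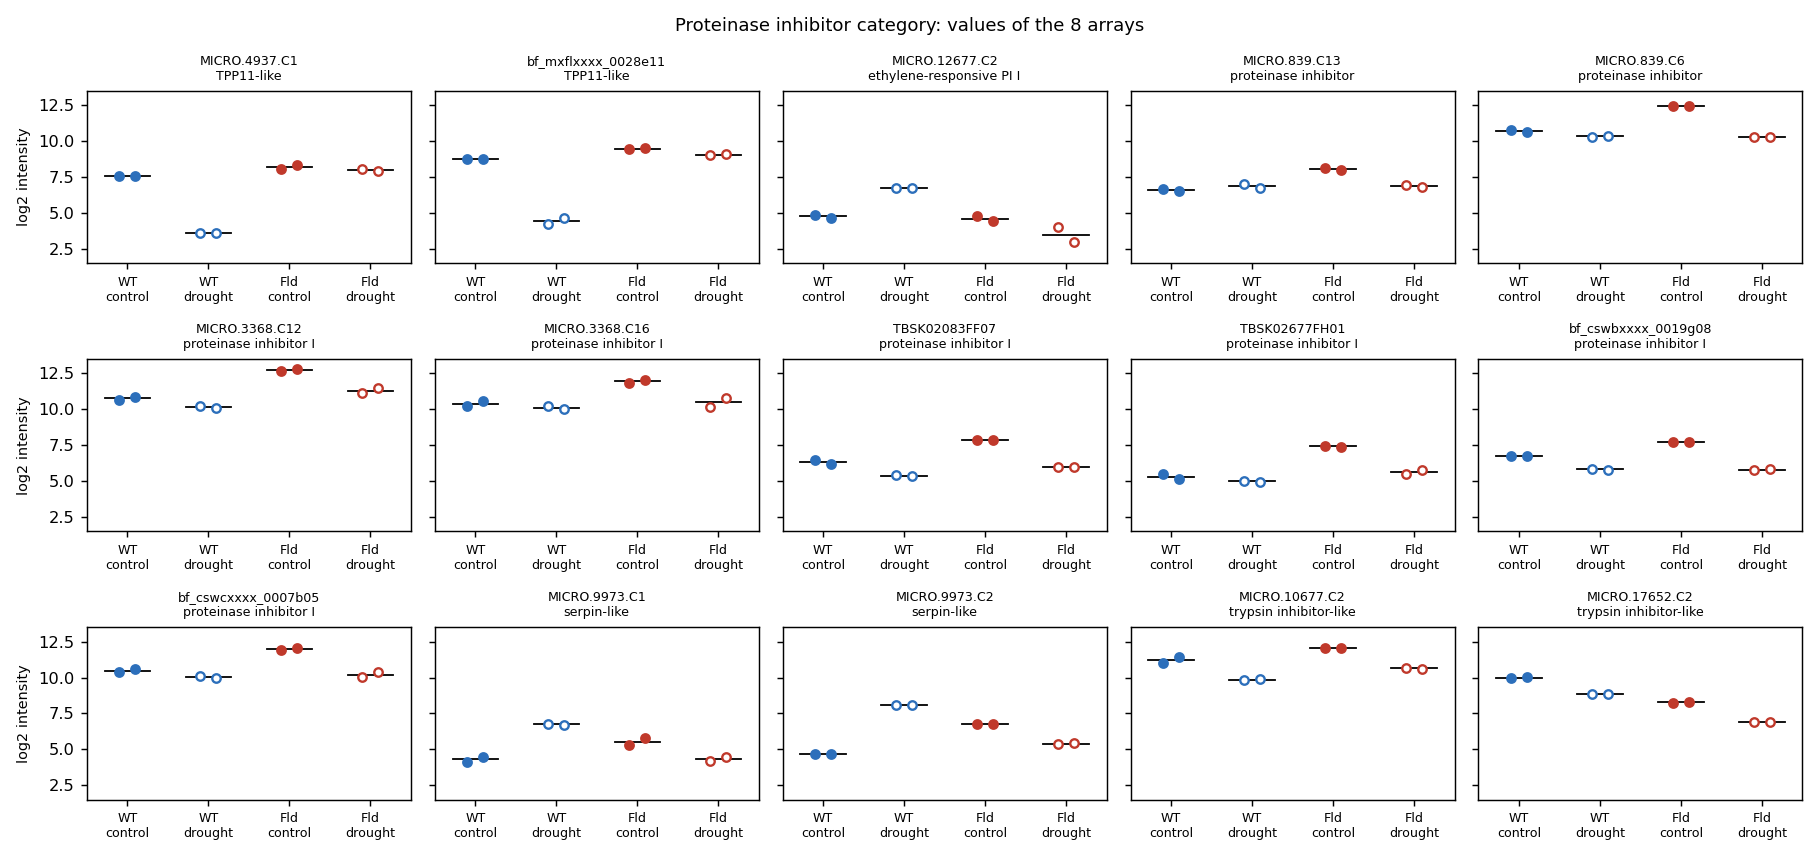
Normalised log2 intensity of 15 probes of the proteinase inhibitor category on each of the 8 arrays, in WT (blue) and Stpfld252 (red, Fld on the axis), control (filled) and drought (open), with the mean of 2 arrays as a bar. In 6 of the 7 proteinase inhibitor I panels the watered Stpfld252 arrays are the highest, and in the 2 TPP11-like panels the WT drought arrays stand far below the rest.

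Other inhibitors and defence transcripts outside the members were taken from the study's own lists, so their counts are not independent of these arrays. The 63 such probes were mostly for Kunitz, aspartic, cysteine and type II proteinase inhibitors. In watered Stpfld252 44 were higher and 2 lower, beside 3.99% and 2.09% of all probes tested. Under drought 11 were higher and 9 lower, beside 6.15% and 5.15%. The drought changes of the 63 were called higher for 18 and lower for 13 in WT, beside 8.48% and 10.3% of all probes. In Stpfld252 they were called higher for 11 and lower for 40, beside 5.88% and 8.14%. Another 9 biotic stress probes (NtPRp27-like and others) came from the study's list of differences between the lines in watered plants. They gave 2 higher and 7 lower in watered Stpfld252, which follows from that choice, and 0 higher and 5 lower under drought. The list of drought-responsive transcripts gave 17 probes of jasmonate synthesis and signalling, so their drought changes follow from that choice. Of these, 4 were higher and 1 lower in watered Stpfld252, beside 3.99% and 2.09% of all probes. In droughted Stpfld252 7 were higher and 0 lower than in WT, beside 6.15% and 5.15%. Drought against control gave 0 higher and 15 lower in WT, and 2 higher and 11 lower in Stpfld252.

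Patatin is the storage protein of tubers. The 7 patatin probes used here were those in the study's own lists, so their counts are not independent of these arrays. All 7 were called higher in Stpfld252 under control and 6 under drought, beside 3.99% and 6.15% of all probes. Of the 7 probes, 1 was well above background on all arrays. Their summed level, as log2, was 8.36 to 8.55 in WT control, 7.12 to 7.19 in WT drought, 10.54 to 10.56 in Stpfld252 control and 9.77 to 9.86 in Stpfld252 drought. Its part in the inhibitor differences was not tested.

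Of the thionin and other PR categories, 5 of the 7 probes were called higher under drought in WT and 1 lower. No sequence match was found for the 3 thionin probes. MICRO.6656.C2 read 10.37 and 10.20 in WT control, 13.49 and 13.47 in WT drought, 10.74 and 10.79 in Stpfld252 control and 11.27 and 11.51 in Stpfld252 drought, and PotatoF1496 read between 4.58 and 5.06 in all groups except WT drought (6.83 and 6.99). Under drought they were 4.27-fold (adjusted p = 6.4e-06) and 4.1-fold (adjusted p = 3.1e-05) lower in Stpfld252. Among the other PR probes, MICRO.8856.C2 read 7.59 and 7.70 in WT control, 9.12 and 9.20 in WT drought, 8.77 and 9.13 in Stpfld252 control and 7.54 and 7.43 in Stpfld252 drought, another mirrored pattern, 2.47-fold higher (adjusted p = 0.00028) and then 3.2-fold lower (adjusted p = 4.3e-05) in Stpfld252. A putative beta-glucan binding protein (MICRO.16823.C1) was 3.94-fold higher in watered Stpfld252 (adjusted p = 1.1e-05) and fell there by 2.12 ± 0.09 on the log2 scale under drought. WIN2 (MICRO.11296.C2), a wound-induced chitin-binding protein of potato, and a PR protein-like probe (MICRO.9359.C1) were higher under drought in both lines by 1.18 to 1.38. WIN2 was 2.39-fold (adjusted p = 0.001) and 2.75-fold (adjusted p = 0.00027) lower in Stpfld252, and the PR protein-like probe 1.9-fold lower in both treatments.

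Receptors and resistance proteins were mostly lower under drought in both lines. Of 39 LRR receptor probes 7 were called higher and 29 lower in WT, beside 8.48% and 10.3% of all probes. In Stpfld252 4 were higher and 22 lower, beside 5.88% and 8.14%, and the choice of the members bears on these counts. In watered plants 3 were higher and 2 lower in Stpfld252, beside 3.99% and 2.09% of all probes. In drought 11 were higher and 4 lower, beside 6.15% and 5.15%. The count of 11 was 6 with a normexp offset of 50 and 14 with scaling of processed signals by the 75th percentile. The median difference in drought was 0.39 against -0.03 over all probes.

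A receptor protein kinase (MICRO.16440.C1) read 9.51 and 9.16 in WT control, 5.0 and 5.56 in WT drought, 10.07 and 10.02 in Stpfld252 control and 7.89 and 7.65 in Stpfld252 drought. The probe was lower under drought in both lines and 5.61-fold higher in Stpfld252 than in WT under drought (adjusted p = 6e-05). STMJC95TV, matched to a tomato disease resistance protein, and MICRO.1978.C3, an LRR family protein, were also higher in droughted Stpfld252, by 3.56-fold (adjusted p = 7.2e-05) and 2.8-fold (adjusted p = 3.5e-05), and close to WT in watered plants (-0.13 ± 0.15 and 0.05 ± 0.11). Another probe of that contig, MICRO.1978.C2, and MICRO.4463.C1, with the same description, gave 2.54-fold (adjusted p = 0.00029) and 2.22-fold (adjusted p = 2.5e-05). Outside the members, MICRO.1978.C1 and MICRO.1978.C4 differed by -0.52 ± 0.09 and -0.01 ± 0.09 (log2) between the lines in drought. MICRO.10912.C1, an LRR protein with a pepper match, was opposite in the lines and read 6.88 and 6.65 in WT control, 5.37 and 5.91 in WT drought, 4.80 and 4.91 in Stpfld252 control and 7.21 and 7.14 in Stpfld252 drought. It was 3.76-fold lower in watered Stpfld252 (adjusted p = 0.00023) and 2.9-fold higher in drought (adjusted p = 0.00033). MICRO.4697.C1, an LRR protein with a chickpea match, read 7.61 and 7.77 in WT control, 3.26 and 3.70 in WT drought, 9.61 and 9.72 in Stpfld252 control and 4.63 and 4.22 in Stpfld252 drought. It fell at least 12.4-fold in WT and 37.8-fold in Stpfld252 under drought, and was 3.94-fold higher in watered Stpfld252 (adjusted p = 0.00024). MICRO.3284.C3 carries the LRR category but is described as a monooxygenase, and was 4.15-fold higher in droughted Stpfld252 (adjusted p = 1.4e-06).

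The 40 CC-NBS-LRR probes were called higher for 5 and lower for 23 under drought in WT and higher for 4 and lower for 19 in Stpfld252, and the 18 TIR-NBS-LRR probes for 0 and 12 and for 0 and 14. Of all probes, 8.48% were higher and 10.3% lower in WT, and 5.88% and 8.14% in Stpfld252. With a normexp offset of 50 the category counts were 1 and 15 in WT and 0 and 12 in Stpfld252 for CC-NBS-LRR, and 0 and 10 and 0 and 7 for TIR-NBS-LRR. The TIR-NBS-LRR changes in WT spanned -2.29 to 0.11, with tobacco N-like resistance protein (MICRO.2840.C2) at the lower end with -2.29 ± 0.10 and -1.69 ± 0.10 in Stpfld252. A CC-NBS-LRR probe described as an Arabidopsis protein of unknown function (bf_arrayxxx_0059a06) was at 7.27 to 7.52 on the 4 control arrays and not well above background on the 4 drought arrays. The 3 probes matched to RPP13-like protein (bf_mxlfxxxx_0071f09, cSTB31G8TH and TBSK02594FA02), a relative of an Arabidopsis downy mildew resistance protein, changed by -1.33 to -1.63 in WT and -0.38 to -0.55 in Stpfld252. In droughted plants they stood 2.02-fold, 1.62-fold and 1.97-fold higher in Stpfld252. Between the lines, 1 CC-NBS-LRR and 2 TIR-NBS-LRR probes were higher in watered Stpfld252 and 0 lower, beside 3.99% and 2.09% of all probes. Under drought 3 and 1 were higher and 4 and 0 lower, beside 6.15% and 5.15%. STMEY39TV, a potato CC-NBS-LRR protein, was 2.21-fold higher in watered Stpfld252 (adjusted p = 0.00017), and MICRO.4082.C9, with no match, 3.18-fold (adjusted p = 6.9e-05). Of 6 probes of contig MICRO.4082 outside the members, 1 was called in that comparison, MICRO.4082.C1 with -1.11 ± 0.17 (log2). The 4 CC-NBS-LRR probes lower in droughted Stpfld252 include MICRO.13806.C1, a putative CC-NBS-LRR protein that read 12.26 and 12.46, 13.03 and 12.96, 12.41 and 12.34, and 11.03 and 11.13 from WT control to Stpfld252 drought (3.77-fold, adjusted p = 6e-06). They also include MICRO.6076.C2 (6.32-fold, adjusted p = 9.6e-07) and a putative polyprotein (bf_mxflxxxx_0073g07, at least 6.64-fold, adjusted p = 6.9e-06), whose descriptions name no resistance protein.

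Respiratory burst oxidases make the superoxide of the early defence response. All 3 probes were lower under drought in WT, by 1.44 to 1.72, and 2 of the 3 were called lower in Stpfld252. The whitefly-induced gp91-phox probe MICRO.839.C3 read 13.80 and 13.99 in WT control, 12.19 and 12.17 in WT drought, 13.51 and 13.54 in Stpfld252 control and 12.15 and 12.27 in Stpfld252 drought, and the 3 probes differed by less than 2-fold between the lines in each treatment. Among the 7 signalling probes, Mlo6 (MICRO.3842.C1), of a membrane protein family known in barley for powdery mildew susceptibility, was lower in Stpfld252 in both treatments, 1.66-fold under control and 2.32-fold under drought (adjusted p = 3.1e-05). A NOI protein (MICRO.17190.C1), with a domain shared with the immune regulator RIN4 of Arabidopsis, read between 10.38 and 10.83 in all groups except WT drought, where both arrays read 11.69, and was 2.05-fold lower in droughted Stpfld252 (adjusted p = 0.00033), or -0.86 on the log2 scale and not called without Stpfld252 drought replicate 1.

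Among the 25 probes without a narrower category, 5 were called higher under drought in WT and 19 lower, beside 8.48% and 10.3% of all probes. In Stpfld252 2 were higher and 10 lower, beside 5.88% and 8.14%. The major latex-like protein (MICRO.15700.C1), of a family related to PR-10, had the largest drought change of the 210 members. It read 5.69 and 5.44 in WT control, 13.46 and 13.38 in WT drought, 6.22 and 6.16 in Stpfld252 control and 10.24 and 10.38 in Stpfld252 drought, 232-fold and 17.4-fold over control. The droughted Stpfld252 plants were 8.64-fold below droughted WT (adjusted p = 1.3e-06). Over the 8 arrays, the probes of the whole array with the closest profile to it were MICRO.1855.C1 and MICRO.1855.C2, with no match, and MICRO.10981.C1, a potato phytosulfokine precursor (Pearson's r = 0.99969, 0.99877 and 0.9992), a description over 8 arrays in 4 groups.

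An unmatched probe (MICRO.13328.C1) read 10.19 and 10.05 in WT control, 6.0 and 5.91 in WT drought, 10.48 and 10.68 in Stpfld252 control and 9.81 and 9.86 in Stpfld252 drought, and was 14.7-fold higher in droughted Stpfld252 than in WT (adjusted p = 4.4e-07). As for the TPP11-like probes, only the WT drought arrays were far below the rest. Of 4 probes that share a description (an Arabidopsis protein of unknown function), MICRO.5993.C1 read 14.72 and 14.70 in WT control, 9.08 and 9.10 in WT drought, 13.88 and 13.83 in Stpfld252 control and 9.82 and 9.77 in Stpfld252 drought. MICRO.13203.C1 was likewise lower in both lines, with changes of -4.46 ± 0.09 in WT and -3.65 ± 0.09 in Stpfld252, and MICRO.13739.C1 and MICRO.14146.C1 changed by -2.20 ± 0.09 and -1.65 ± 0.16 in WT and -2.30 ± 0.09 and -2.56 ± 0.16 in Stpfld252. The last was not well above background on the 4 drought arrays. The 4 probes for Sn-1 and Sn-2, of a wound-induced protein family of pepper, were lower under drought in WT with changes of -1.35 to -2.57, and in Stpfld252 the changes were -1.21 to 0.25. All 4 differed by less than 2-fold between the lines in each treatment. A pollen allergen-like protein (SSBN002F09u) read between 4.90 and 5.37 in 3 groups and 7.60 and 7.84 in Stpfld252 drought, 6.77-fold above WT (adjusted p = 2.3e-06).

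At the edge of the rule, the members with the smallest changes were a nitrate-induced protein-like probe (MICRO.5871.C1, -1.02 in WT and -0.90 in Stpfld252), an unmatched CC-NBS-LRR probe (bf_arrayxxx_0042b09, 0.40 and 1.02) and a tobacco-matched CC-NBS-LRR probe (MICRO.13871.C1, -0.64 and -1.02). Just outside it lay an osmotin-like probe (MICRO.13949.C1, 0.95 and 1.24), the proteinase inhibitor I probe MICRO.3368.C14 (-0.12 and -1.03) and a biotic stress probe from the list of differences between the lines (bf_suspxxxx_0025F06, -0.15 and 0.96).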

How the data were processed

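Leaf RNA of 2 lines under 2 treatments was hybridised to 8 one-colour Agilent potato arrays. The authors deposited the scanner intensities of each array (Agilent Feature Extraction 11.5.1.1 per the file headers) and a table of background-corrected, quantile-normalised log2 values of 32469 probes, made with limma. Comparison columns (fold changes, p-values) in the paper's lists were not used.

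Here median spot intensities were corrected with normexp (offset 0) against the median background in limma 3.58.1 (R 4.3.3) and quantile normalised. The filter took the 95th percentile of 153 negative control spots, multiplied it by 1.1, and kept a probe that was brighter in 1 group or more on both arrays. This kept 36435 of 42034 probes. One limma model of all 8 arrays, without a block, gave each comparison, with Benjamini-Hochberg adjusted p-values over all probes and the threshold given with the first calls. Errors are the model's SE. The number of arrays, 2 per group, limits the precision, and p-values measure the spread between pools. The same-numbered arrays of the groups did not deviate together. A probe not well above background on both arrays of a group has only a bound there and is written as at least N-fold. On each array its level was taken as the highest of its own signal, the lowest signal well above background and the 95th percentile of the negative controls, so where its own signal was the highest the bound equals the fitted fold. The statistics were tested on simulated data.

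Members were matched to the array by probe name, with trace endings left out of printed names, and no probe sequence was used here. The members, marker lists and lists of other defence transcripts were chosen with earlier results of these data known. Probes were named from a rule: every member of PR-1 and every one described as a chitinase, osmotin, thaumatin-like protein or proteinase inhibitor, and the 3 largest called changes of every other group in each comparison, and for likeness the 3 probes best correlated with the member of the largest drought change. The rest of the 103 probes the rule names are given in counts. Some further probes, such as those of a shared contig or description, were chosen after their values were seen.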

Additional observations from a re-analysis of the deposited data

Results flagged for a closer look

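The difference of the drought changes was called for 83 of the 210 members, beside 12.4% of all probes. It was higher in Stpfld252 for 33 and lower for 50, beside 6.14% and 6.26%. Of the 103 probes named by the rule, 58 had such a difference, and 29 had one of more than 4-fold. The rule names some of the 103 for their large called changes, so these counts follow in part from the naming. The same drought changes chose the members, so these differences are a description. Values are fitted differences of log2 changes, Stpfld252 minus WT. They are not exact sizes for MICRO.4937.C1, MICRO.12677.C2, MICRO.17218.C1, MICRO.1588.C8 and bf_mxflxxxx_0073g07, which were not well above background on both arrays of some group, and with median scaling the drought change of MICRO.12677.C2 in Stpfld252 turned sign.

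On the negative side lay the serpin MICRO.9973.C2 (-4.74), the microtubule-binding protein MICRO.839.C8 (-4.57) and the ethylene-responsive inhibitor MICRO.12677.C2 (-3.09) of the proteinase inhibitor category. The major latex-like protein MICRO.15700.C1 (-3.74), a tumor-related protein (MICRO.16957.C1, -3.53), the PR protein MICRO.15316.C1 (-2.32) and the basic PR-1 MICRO.8918.C2 (-2.32) followed. Thaumatin and osmotin-like probes gave -3.25 (STMGW86TV), -3.11 (bf_arrayxxx_0105a09), -2.91 (MICRO.13533.C1), -2.86 (MICRO.17218.C1), -2.21 (MICRO.1588.C2) and -2.06 (MICRO.1588.C8). Other PR and thionin probes gave -2.98 (MICRO.8856.C2), -2.74 (MICRO.16823.C1) and -2.57 (MICRO.6656.C2), and a class I chitinase (MICRO.556.C3) gave -2.61. The last in this direction were the CC-NBS-LRR category probes bf_mxflxxxx_0073g07 (-2.26) and MICRO.6076.C2 (-2.14).

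On the positive side lay the TPP11-like probes bf_mxflxxxx_0028e11 (3.93) and MICRO.4937.C1 (3.73), SCUTL2 (MICRO.18132.C1, 3.50), the LRR protein MICRO.10912.C1 (3.45) and the unmatched MICRO.13328.C1 (3.42). The chitinases MICRO.556.C1 and MICRO.11279.C1 gave 3.18 and 2.28, the monooxygenase MICRO.3284.C3 2.89, the pollen allergen-like SSBN002F09u 2.64 and the thaumatin-like MICRO.11744.C1 2.25.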

How the results depend on the processing

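The counts of members called kept within 1.5 times their value under most alternatives. A normexp offset of 50 lowered the count of probes lower in watered Stpfld252 from 11 to 5, that of probes higher in droughted Stpfld252 from 31 to 19, and that of higher differences of the drought changes from 33 to 21, and scaling of processed signals by each array's 75th percentile raised the last to 50. Leaving out each array in turn gave 27 to 30 members higher and 11 to 12 lower in watered Stpfld252, and 28 to 32 higher and 33 to 35 lower in drought, with a lone array assumed to vary like the other groups. Over all alternatives 11 to 14 of the 21 proteinase inhibitor probes were higher in watered Stpfld252, and 36 to 50 of the 63 other defence probes. Both sets of probes were chosen for this check after their values were seen. A normexp offset of 50 also lowered drought counts by category, as for chitinases in WT from 8 higher and 8 lower to 4 and 5. Single directions turned for MICRO.12677.C2 under drought in Stpfld252 with median scaling (0.30, from -1.10) and for the difference of the drought changes of MICRO.4697.C1 with the processed signal (0.35, from -1.03) and with median scaling (0.016), and the cause was not tested. The 2-fold limit was missed for WIN2 in watered plants with offset 16 (-0.97) and the deposited log2 table (-0.95). Median scaling moved the median drought change of all probes in Stpfld252 from 0.05 to 0.20. A fit of the 4 arrays compared gives no difference of drought changes, and a filter on all 8 arrays retained 196 members. Same-numbered arrays of 2 groups correlated in their deviations by -0.112 to 0.129, so the numbers only name the arrays, and a replicate block left 27 and 11 probes higher and lower in watered Stpfld252 and 31 and 33 in drought. Of the 210 members, 16 were not well above background on both arrays of some group, and their values there are bounds.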
